A study of Mus musculus with 14 samples.

Results

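The interferon regulatory factors (IRFs) are a family of DNA-binding proteins, and 8 of their genes, Irf1, Irf2, Irf3, Irf4, Irf5, Irf7, Irf8 and Irf9, were followed here in mouse bone marrow cells. They were taken by gene symbol from 2 count tables of 55367 symbols each. All 8 were present in both tables and passed the filter on low counts in both. The cells were primary cells from wild-type bone marrow, depleted of mature lineages and grown with SCF, IL6 and IL3. Every group had received a lentivirus. In the first experiment the pSMAL vector carried luciferase (LUC, 3 libraries) or SETBP1-D868N (3 libraries), a mutant form of the SETBP1 protein known from myeloid malignancies. In the second experiment all cells carried SETBP1-D868N and were kept for 4 days with DMSO (4 libraries) or with 2.5 µM PF-9363 (4 libraries), an inhibitor of MYST-family histone acetyltransferases. Libraries were made from 500 ng of RNA with a Watchmaker kit in the first experiment and from 100 ng by Novogene in the second. The labels do not give the age or sex of the animals, and no label says that replicates came from separate animals or cultures. The p-values therefore measure the spread between these 14 libraries, which may be technical.

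IRFs share a DNA-binding domain that recognises repeats of GAAA, the core of the interferon-stimulated response element (ISRE). IRF3, IRF5 and IRF7 are latent proteins that are phosphorylated when innate sensors detect nucleic acids, and IRF9 joins STAT proteins in the ISGF3 complex that answers type I interferon. IRF1 and IRF2 are an activator and a classical repressor of the same elements, and IRF4 and IRF8 are largely restricted to blood cells, where they bind composite sites with PU.1 and steer monocyte, dendritic and lymphoid development.

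The 250 bases upstream of each annotated start were read from RefSeq (GRCm38.p6), giving 11 promoters because Irf1, Irf8 and Irf9 have more than 1 start. A few stretches are shown, chosen because they hold the matches to interferon or STAT motifs (Irf1, Irf2 and Irf8, first start) or because the gene stood apart in its expression (Irf3). They lie at chr11:53769764-53770013, chr8:46739495-46739744, chr8:120736108-120736357 and chr7:44997398-44997647, in the same order as the genes printed, all on the + strand. Capitals mark a GAS match (TTCNNNGAA, the letters bound by STAT dimers) and, in Irf2, also an Ets-IRF composite (GGAA, any 2 bases, then GAAA) that overlaps an ISRE-type repeat (GAAA, any 2 bases, then GAAA).
Irf1: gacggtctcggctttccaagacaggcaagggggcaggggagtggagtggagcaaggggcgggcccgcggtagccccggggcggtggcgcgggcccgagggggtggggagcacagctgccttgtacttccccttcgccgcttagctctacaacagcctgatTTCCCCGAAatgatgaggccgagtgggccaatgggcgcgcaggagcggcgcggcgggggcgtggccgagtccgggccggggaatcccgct
Irf2: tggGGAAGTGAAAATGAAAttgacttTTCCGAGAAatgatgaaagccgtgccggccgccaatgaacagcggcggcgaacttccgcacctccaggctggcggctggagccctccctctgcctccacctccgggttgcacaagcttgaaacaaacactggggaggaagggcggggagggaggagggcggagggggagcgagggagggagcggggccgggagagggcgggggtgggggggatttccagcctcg
Irf8: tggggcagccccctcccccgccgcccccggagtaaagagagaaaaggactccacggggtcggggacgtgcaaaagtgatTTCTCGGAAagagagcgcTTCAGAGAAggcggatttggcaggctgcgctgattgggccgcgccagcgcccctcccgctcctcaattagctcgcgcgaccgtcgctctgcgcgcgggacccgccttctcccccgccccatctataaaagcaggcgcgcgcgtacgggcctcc
Irf3: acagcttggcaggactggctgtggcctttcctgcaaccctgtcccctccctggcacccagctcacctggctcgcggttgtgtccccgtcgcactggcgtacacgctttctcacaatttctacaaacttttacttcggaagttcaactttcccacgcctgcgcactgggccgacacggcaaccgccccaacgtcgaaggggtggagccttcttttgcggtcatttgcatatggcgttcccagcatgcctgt

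Both strands were searched. A GAS match lay in 3 of the 11 promoters, those of 3 of the 8 genes. In Irf1 it ran from 90 to 82 bases before the start and in Irf2 from 224 to 216. Irf8 held it at 2 places, from 171 to 163 and from 153 to 145. Of 32851 RefSeq promoters of the same length, 7.02% held such a match. The ISRE-type repeat was found in Irf2 alone, in 1 of the 11 promoters searched, against 2.98% of promoters. So was the Ets-IRF composite, against 2.30%. Both Irf9 windows (chr14:55603735-55603984 and chr14:55604329-55604578) lie inside the GENCODE gene, which starts at 55603571. Bases before that start were therefore not searched. The Irf7 window, from 141266425, partly overlaps its GENCODE gene, which ends at 141266481 on the - strand. The PU.1 core GAGGAA occurred in 4 of the 11 promoters, those of Irf2, Irf4 and both Irf9 starts, against 23.3% of promoters. These are matches of letters, which show neither binding nor regulation in these cells.

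Library totals ran from 60147266 to 68730322 counts in the first experiment and from 7083731 to 10359093 in the second. Each table was scaled by itself with TMM. Values are CPM, counts relative to the TMM-scaled library total, so no level is set against one from the other experiment. Mouse Setbp1 had 5, 6 and 6 counts in the LUC libraries and 23, 20 and 24 in the SETBP1-D868N libraries. In the second experiment, where both groups carry the transgene, it had 2, 1, 0 and 0 counts with DMSO and 0 in all 4 PF-9363 libraries, so it checks no label there. No library stood apart: log2 profiles correlated across genes at 0.9955 to 0.9964 within groups of the first experiment (between groups, 0.9868 to 0.989) and at 0.9844 to 0.9898 within groups of the second (between groups, 0.8363 to 0.8711).

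Cells with SETBP1-D868N had less mRNA of most IRF genes than cells with luciferase. By edgeR's quasi-likelihood test with Benjamini-Hochberg adjustment over all genes, 7 of the 8 fell at an adjusted p under 0.05, none rose, and Irf3 was not called. Of the 15794 genes tested, 47.2% were called, 24.5% higher and 22.7% lower, so a call was common in itself and a lower call less so. Higher calls were 51.9% of all calls, and 62.1% under scaling to library size alone. The median log2 fold change of the 8 genes was -0.34, or 0.792-fold, beside 0.0043 for all genes tested. The declines were modest, from 18.1% for Irf8 to 34.4% for Irf5. Groups did not overlap for the 7 genes that fell. Among all tested genes, 56.7% had groups without overlap, 29.4% higher and 27.3% lower. In RNA from bulk cultures, fewer cells of a type and less RNA per cell cannot be told apart.

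PF-9363 was followed by higher levels of all 8 IRF genes than DMSO in SETBP1-D868N cells. All 8 rose by the same test, with no overlap between groups, although Irf3 did not under scaling to library size alone. In that experiment 76.0% of 13456 tested genes were called, 36.6% higher and 39.4% lower, and 70.3% had groups without overlap, 34.0% higher and 36.3% lower. Higher calls were 48.1% of all calls, and 36.2% under scaling to library size alone. The median log2 fold change of the 8 genes was 1.16, a 2.23-fold higher level, beside -0.038 for all genes. All but Irf3 of the 8 fell with SETBP1-D868N and rose with PF-9363, as did 2084 of the 12376 genes tested in both experiments (16.8%).

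**Figure D1:**
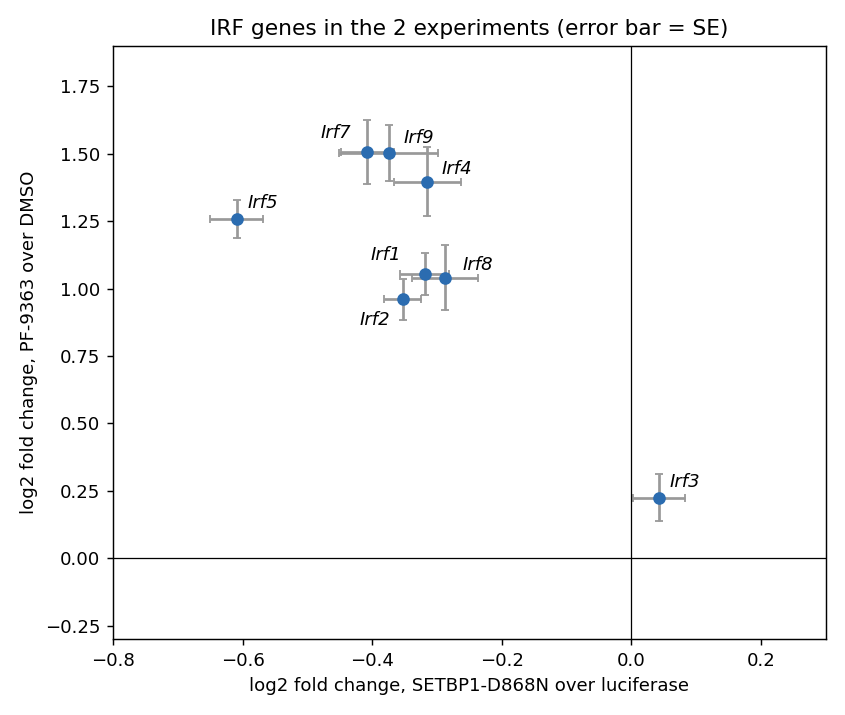
Log2 fold change of each IRF gene with SETBP1-D868N over luciferase (x axis) and with PF-9363 over DMSO (y axis), with standard errors as bars. All but 1 of the 8 genes lie at the upper left, between -0.61 and -0.29 on the x axis and between 0.96 and 1.51 on the y axis, and Irf3 lies near the origin at 0.043 and 0.22.

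Among the IRFs activated through innate sensors, Irf5, which encodes a factor downstream of Toll-like receptors and MyD88, had the largest decline of the 8 with SETBP1-D868N. It measured 127, 125 and 123 CPM in the LUC libraries and 78.4, 79.5 and 88.0 CPM in the SETBP1-D868N libraries. All 3 control libraries lay well above the 3 mutant ones. The log2 fold change was -0.61 (SE 0.041, adjusted p = 5.59e-07 by edgeR). With DMSO the 4 libraries held 40.2, 43.0, 41.0 and 44.6 CPM, and with PF-9363 they held 104, 94.4, 104 and 102 CPM. The treated libraries were tightly grouped far above the controls, a log2 fold change of 1.26 (SE 0.072, adjusted p = 2.02e-15 by edgeR). The gene lies at chr6:29526625-29541871 (GRCm38, ENSMUSG00000029771.12), and 411 bases of its exons overlap exons of Tnpo3 on the opposite strand. Strand handling in the counting is not given in the sources used here, so reads of the 2 genes in that stretch may not be separated.

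Irf7 encodes the factor that amplifies type I interferon production and is itself a classical ISGF3 target. It measured 47.7, 49.99 and 49.1 CPM with LUC and 35.02, 38.3 and 37.4 CPM with SETBP1-D868N. The groups were separated by more than their own ranges, at a log2 fold change of -0.41 (SE 0.040, adjusted p = 6.25e-06 by edgeR). In the second experiment Irf7 stood at 14.1, 18.4, 13.3 and 12.2 CPM with DMSO and at 44.2, 45.4, 38.3 and 36.4 CPM with PF-9363. Even the lowest treated library exceeded the highest control by a wide margin, and its log2 fold change, 1.51 (SE 0.12, adjusted p = 3.12e-12 by edgeR), was the largest point estimate among the 8 genes. Irf7 occupies chr7:141262706-141266481 on the - strand and shares 45 exon bases with Phrf1 on the other strand.

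Irf3, the constitutively expressed partner of IRF7 in the first wave of interferon induction, behaved differently in both tables. It measured 60.5, 65.7 and 63.6 CPM with LUC and 68.3, 62.9 and 64.1 CPM with SETBP1-D868N, and these ranges overlapped. The log2 fold change was 0.043 (SE 0.040, adjusted p = 0.412 by edgeR). With DMSO it measured 36.7, 36.7, 41.3 and 32.8 CPM, and with PF-9363 44.0, 43.7, 42.0 and 42.6 CPM. The highest DMSO library came close to the lowest treated one without reaching it. The log2 fold change of 0.22 (SE 0.088, adjusted p = 0.0225 by edgeR) was the smallest of the 8. This call was lost without DMSO replicate 4, at 0.17 (adjusted p = 0.105), and under scaling to the library total alone the estimate was -0.0054 (adjusted p = 0.959). Irf3 lies at chr7:44997648-45002848 and shares 88 exon bases with the opposite-strand gene Bcl2l12.

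Irf9, the DNA-binding subunit of ISGF3, measured 35.9, 41.7 and 43.0 CPM with LUC and 32.0, 32.4 and 28.6 CPM with SETBP1-D868N. LUC replicate 1 was the nearest to the mutant libraries, but the groups stayed apart. Irf9 fell by 0.37 on the log2 scale (SE 0.077, adjusted p = 0.00458 by edgeR), with the widest error of the 8. In the second experiment it measured 16.7, 21.95, 15.8 and 18.8 CPM with DMSO and 57.5, 47.6, 51.5 and 50.4 CPM with PF-9363. Every treated library was far above every control, at a log2 fold change of 1.501 (SE 0.10, adjusted p = 1.62e-13 by edgeR). Irf9 (chr14:55603571-55610030) shares 123 exon bases with Rnf31 on the same strand, which strand-aware counting would not separate.

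Irf1 and Irf2 moved together. Irf1, the interferon-gamma-inducible activator, measured 64.2, 68.3 and 68.0 CPM with LUC and 55.7, 53.4 and 51.6 CPM with SETBP1-D868N, and it measured 42.0, 46.5, 39.6 and 45.5 CPM with DMSO and 84.7, 88.6, 98.8 and 89.0 CPM with PF-9363. Groups were clear of each other in both experiments, and the log2 fold change of Irf1 was -0.32 (SE 0.038) in the first and 1.05 (SE 0.077) in the second. Irf2, its repressive counterpart and the gene with the ISRE-type repeat printed above, measured 85.0, 87.1 and 84.1 CPM with LUC and 66.6, 67.1 and 67.0 CPM with SETBP1-D868N. The 3 mutant libraries of Irf2 were nearly identical, all below the controls. In the second experiment Irf2 measured 43.7, 54.4, 45.5 and 51.7 CPM with DMSO and 93.3, 97.3, 93.1 and 96.3 CPM with PF-9363. The DMSO libraries were more spread than the treated ones, and the log2 fold changes of Irf2 were -0.35 (SE 0.028) and 0.96 (SE 0.076). By edgeR the adjusted p-values were 2.61e-05 and 4.85e-13 for Irf1 and 1.15e-06 and 3.10e-12 for Irf2.

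The balance of activator to repressor did not pass a test in either experiment. The log2 ratio of Irf1 to Irf2 CPM (0.5 CPM added to each) differed by 0.034 between SETBP1-D868N and LUC (two-sided exact permutation p = 0.5) and by 0.090 between PF-9363 and DMSO (two-sided exact permutation p = 0.229). The smallest p-values these tests could give were 0.1 and 0.0286, so the first could not have passed 0.05. Irf1 lies at chr11:53770014-53778374, sharing 135 exon bases with the antisense gene Gm17334, and Irf2 at chr8:46739732-46847458, sharing no exon base with the genes that overlap it.

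Irf4 and Irf8, the pair restricted largely to blood cells, also fell and rose. Irf4, needed for plasma cells and for alternatively activated macrophages, measured 81.7, 75.7 and 76.0 CPM with LUC and 57.8, 63.5 and 66.3 CPM with SETBP1-D868N. It measured 9.82, 11.97, 8.71 and 10.4 CPM with DMSO and 22.8, 25.8, 29.7 and 29.8 CPM with PF-9363. No control library overlapped its treated group in either case. The log2 fold changes were -0.31 (SE 0.051, adjusted p = 7.12e-04 by edgeR) and 1.40 (SE 0.13, adjusted p = 7.64e-11 by edgeR). Irf8, which directs monocyte and dendritic cell fate, measured 24.7, 25.4 and 25.1 CPM with LUC and 22.1, 19.8 and 19.7 CPM with SETBP1-D868N. It measured 16.8, 12.5, 12.1 and 17.6 CPM with DMSO and 30.6, 28.9, 30.0 and 31.8 CPM with PF-9363. The DMSO libraries formed a higher and a lower pair, both well under the treated ones. The log2 fold changes of Irf8 were -0.29 (SE 0.051, adjusted p = 6.06e-04 by edgeR) and 1.04 (SE 0.12, adjusted p = 8.20e-09 by edgeR). The log2 ratio of Irf8 to Irf4 differed by 0.030 with SETBP1-D868N (two-sided exact permutation p = 0.9) and by -0.32 with PF-9363 (two-sided exact permutation p = 0.171), and the first changed sign when 1 library was left out. Irf4 (chr13:30749226-30766976) has no overlapping gene in GENCODE M21, and Irf8 (chr8:120736358-120756694) shares no exon base with its neighbour.

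**Figure D2:**
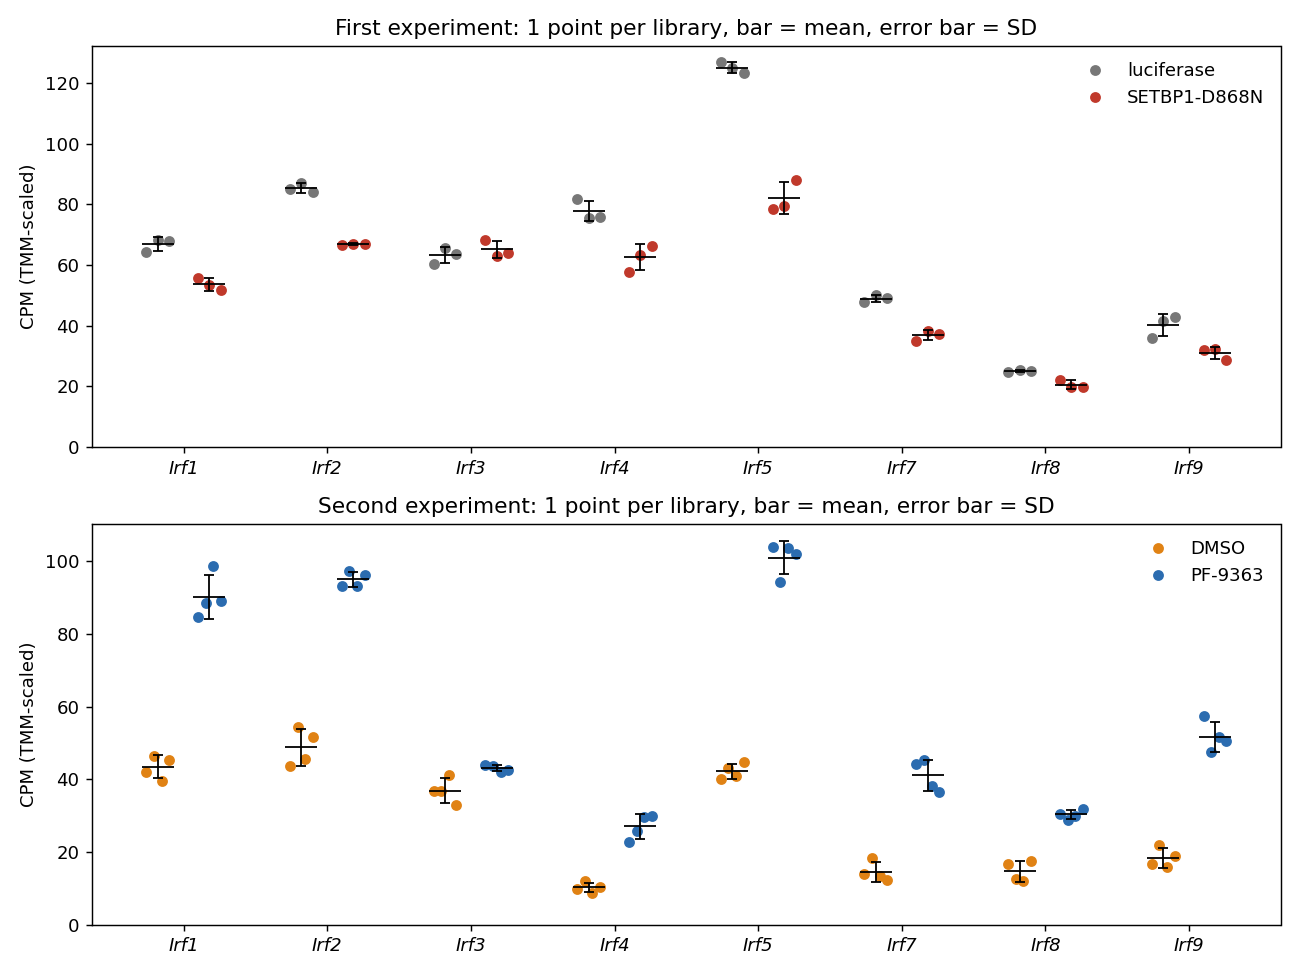
TMM-scaled CPM of the 8 IRF genes in each library, first experiment above and second below, with 1 point per library, a bar at the group mean and error bars of 1 SD. Apart from Irf3 in the first experiment, no gene's groups overlap.

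Scaled to exon length, Irf5 was the most abundant of the 8 in every group, at 43.0 CPM per kb with LUC, 28.2 with SETBP1-D868N, 14.5 with DMSO and 34.8 with PF-9363. In the first experiment the order below it was Irf3, Irf1, Irf4, Irf7, Irf2, Irf9 and Irf8 in both groups, and only Irf1 and Irf4 had overlapping ranges among neighbours. Irf8 was lowest there, at 3.55 and 2.91 CPM per kb. With DMSO, Irf1 (10.9) and Irf3 (10.7) followed Irf5 with overlapping ranges, and Irf8 and Irf4 shared the last place at 2.09 each. With PF-9363, Irf1 stood alone in second place at 22.7, Irf2 (12.8) and Irf3 (12.5) overlapped, as did Irf7 (10.9) and Irf9 (9.61), and Irf8 was lowest at 4.30.

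The summed length-scaled level of the 8 genes went from 129.6 ± 1.35 (SD, n = 3) CPM per kb with LUC to 100.8 ± 1.43 (SD, n = 3) with SETBP1-D868N, and from 54.2 ± 2.61 (SD, n = 4) with DMSO to 113 ± 1.94 (SD, n = 4) with PF-9363. The largest differences in mean share of this sum were those of Irf3 and Irf5. Irf3 was 14.2% of it with LUC and 18.8% with SETBP1-D868N, and 19.8% with DMSO and 11.1% with PF-9363. Irf5 was 33.2% and 28.0%, then 26.8% and 30.7%. Ratios to Irf3 in the same library used a reference chosen after its values were seen. The log2 ratios of the other 7 genes were lower by between 0.33 and 0.65 with SETBP1-D868N. With PF-9363 they were higher by between 0.74 and 1.29. These ratios share the same denominator and restate the differences given above, so they are no separate support.

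**Figure D3:**
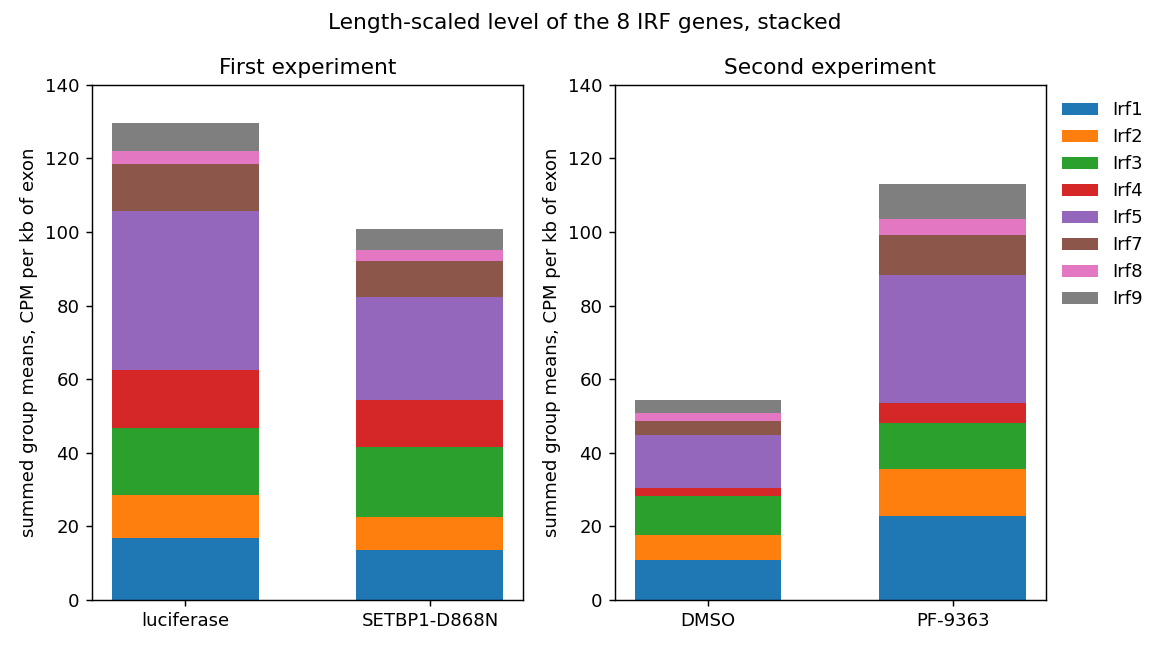
Stacked group means of the 8 IRF genes in CPM per kb of exon for the first experiment (left) and the second (right). The stack is lower with SETBP1-D868N than with luciferase and higher with PF-9363 than with DMSO, while the Irf3 block changes less in height than any other.

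The genes around the IRFs were examined as lists chosen with earlier results of these data known. Beside the counts in every list below, 24.5% of all tested genes were called higher and 22.7% lower with SETBP1-D868N. With PF-9363 these shares were 36.6% higher and 39.4% lower. Of 10 interferon receptor and JAK-STAT genes, 9 fell and none rose with SETBP1-D868N (median log2 fold change -0.24), and 7 rose and 1 fell with PF-9363 (median 0.74). Jak2, the kinase shared by the interferon-gamma receptor and several cytokine receptors, fell by 0.55 and rose by 1.52. Stat2, a partner of IRF9 in ISGF3, fell by 0.31 on the log2 scale with SETBP1-D868N and rose by 0.50 (SE 0.081) with PF-9363. The 2 chains of the interferon-gamma receptor went opposite ways with PF-9363, Ifngr1 at -1.08 (SE 0.058) and Ifngr2 at 1.82 (SE 0.067).

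Interferon ligands were near or at the detection limit. None of the 10 ligand genes in the list passed the filter. In the first experiment 7 of them, among them Ifng and Ifna4, had 0 counts in all 6 libraries, where 3 counts correspond to 0.0447 to 0.0505 CPM. In the second, 8 of them, Ifnb1 included, had 0 counts in all 8 libraries, where 3 counts correspond to 0.272 to 0.467 CPM.

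Upstream of IRF3, IRF5 and IRF7, 9 of 18 sensor, adaptor and kinase genes fell and 1 rose with SETBP1-D868N (median -0.10), and 10 of 17 rose and 4 fell with PF-9363 (median 0.46). Among called genes of at least 5 CPM, the steepest declines in the first experiment were in Tlr9 (-0.80), a sensor of unmethylated DNA, Ddx58 (-0.56), which encodes the RNA sensor RIG-I, and Tlr8 (-0.48). With PF-9363 the endosomal receptor genes Tlr7 (2.31) and Tlr8 (2.50) and the adaptor Myd88 (1.42) rose, and so did Tlr9 (1.67), from 0.915 ± 0.318 to 2.86 ± 1.09 CPM (SD, n = 4 each) with overlapping groups. Tbk1, the kinase that phosphorylates IRF3, fell by 0.10 and rose by 0.50, the decline not being called under scaling to library size alone (-0.055, adjusted p = 0.133). Sting1, the adaptor of cytosolic DNA sensing, measured 119 ± 1.45 and 119 ± 2.93 CPM (SD, n = 3 each) in the first experiment and rose by 0.95 with PF-9363.

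Of 11 DNA-binding partners and corepressors, 7 fell and 2 rose with SETBP1-D868N (median -0.12), and 7 rose and 2 fell with PF-9363 (median 0.67). Spi1, which encodes PU.1, the partner of IRF4 and IRF8, fell by 0.27 (SE 0.024) and rose by 0.67 (SE 0.059). The related Spib fell by 0.96 in the first experiment. Batf3, which binds with IRF8 in dendritic cells, fell by 0.55 and rose by 2.79, the latter from 1.32 ± 0.611 to 9.33 ± 0.468 CPM (SD, n = 4 each). Batf (1.40) and the corepressor gene Irf2bpl (1.07) rose with PF-9363. Irf2bp2, another IRF2-binding corepressor, fell slightly in both, by 0.11 and 0.17, with overlapping groups. Its first call was lost without any single library other than LUC replicate 1, and its second without DMSO replicate 4 or PF-9363 replicate 1.

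ISGF3 target genes were not all on 1 side. With SETBP1-D868N, 9 of 20 fell and none rose (median -0.70), and all 20 estimates were negative. Usp18, which restrains interferon signalling, fell by 0.71, the antiviral GTPase gene Mx1 by 0.69, and Oas3 by 0.85. The Oas3 call was lost without any 1 of 4 of the 6 libraries. With PF-9363, 13 were measurable, of which 8 rose and 3 fell (median 0.73). Usp18 rose from 1.62 ± 0.282 to 12.7 ± 1.33 CPM (SD, n = 4 each), a log2 fold change of 2.96, while Ifit2 (-2.37) and Isg20 (-1.38), both antiviral effectors, fell. Isg15, a ubiquitin-like modifier, fell by 0.54 in the first experiment. It rose by 0.73 (SE 0.21) in the second, where PF-9363 replicate 3 lay within the DMSO range.

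Of 19 measurable IRF1 and GAS target genes, 10 fell and 2 rose with SETBP1-D868N (median -0.15). With PF-9363, 9 rose and 4 fell, beside 36.6% and 39.4% of all tested genes. Their median, 0.12, was closer to that of all genes than the medians of the other lists. The guanylate-binding protein genes Gbp2 and Gbp5 fell by 0.62 and 0.50 with SETBP1-D868N, and the related GTPase gene Irgm2 fell by 0.57. With PF-9363, Cd274, which encodes PD-L1, rose from 40.2 ± 7.36 to 327 ± 51.0 CPM (SD, n = 4 each), and Socs1, a feedback inhibitor of JAK kinases, rose by 1.60. Gbp3 went the other way, at -1.80.

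Most genes of the list taken as IRF8-dependent in monocytes and dendritic cells fell with SETBP1-D868N, 17 of 20, and 1 rose (median -0.67). Whether they depend on IRF8 in these cells was not tested. The MHC class II transactivator gene Ciita fell from 69.7 ± 5.24 to 34.4 ± 3.32 CPM and the invariant chain gene Cd74 from 1248 ± 31.8 to 695.8 ± 71.7 CPM (SD, n = 3 each). Csf1r, the receptor for macrophage colony-stimulating factor, fell by 0.60 and Cybb, the NADPH oxidase subunit, by 0.73. Ly86 rose by 0.45 from 2.14 CPM, a call that was lost without SETBP1-D868N replicate 1 or 2. With PF-9363, 11 of 17 rose and 3 fell (median 2.34). Those that fell were Ly6c2 (1206 ± 71.9 to 308 ± 68.1 CPM), Ccr2 (773 ± 44.7 to 134 ± 12.6 CPM; SD, n = 4 each) and F13a1. Csf1r rose by 2.77, Cybb by 2.29, the monocyte factor gene Klf4 by 3.62 and the Fc receptor gene Fcgr1 by 5.001, the last from 0.798 ± 0.247 to 25.8 ± 3.75 CPM (SD, n = 4 each). F13a1, which encodes a coagulation factor subunit made by monocytes, fell in both experiments, by 0.81 and by 6.04, in the second from 919.8 ± 64.0 to 13.7 ± 5.70 CPM (SD, n = 4 each).

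Of 14 IRF4-associated genes, 13 fell with SETBP1-D868N (median -0.62), and of 13 measurable with PF-9363, 11 rose and 2 fell (median 1.33). Arg1 (-1.46) and Retnla (-1.45), markers of alternatively activated macrophages, fell most in the first experiment, and Prdm1, the plasma cell regulator gene, fell by 1.14. In the second, the mannose receptor gene Mrc1 rose by 3.17, Pdcd1lg2, which encodes PD-L2, by 2.93, and Prdm1 by 1.99 from under 1 CPM. Arg1 rose there by 1.31, but Retnla fell again, by 1.08 (SE 0.13). The other gene that fell, Mgl2, did so by 0.13 with overlapping groups. Klf4, a member of both the IRF8 and the IRF4 list, fell by 0.38 in the first experiment.

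**Figure D4:**
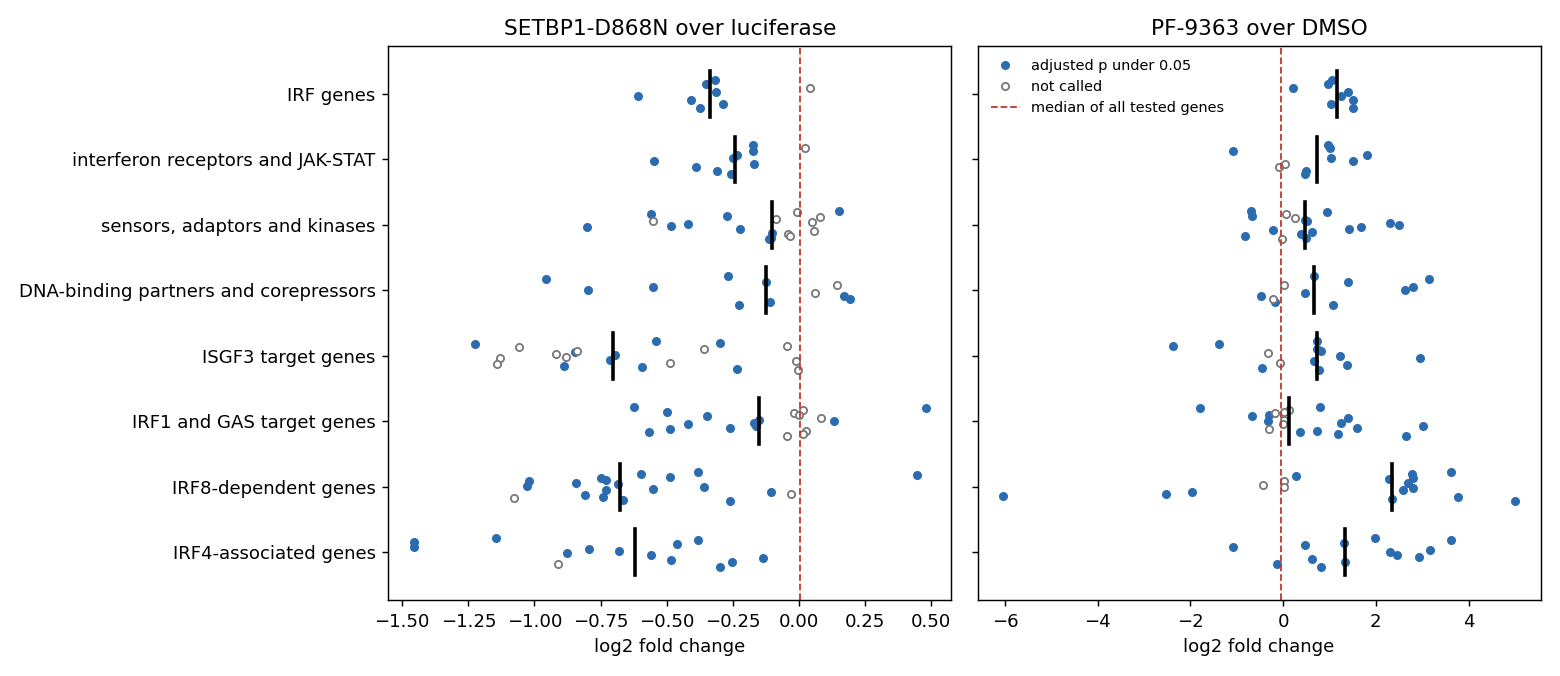
Log2 fold changes of the 8 IRF genes and of each pathway list, SETBP1-D868N over luciferase (left) and PF-9363 over DMSO (right), with 1 point per tested gene, filled where the adjusted p is under 0.05. Black bars are list medians, all below the dashed median of all tested genes on the left and all above it on the right, and the 2 panels have different scales.

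Most tested markers of monocytes, macrophages and conventional dendritic cells moved in the same directions as the IRF genes. Among all tested genes, 24.5% were called higher and 22.7% lower with SETBP1-D868N, and 36.6% higher and 39.4% lower with PF-9363. Of 10 monocyte and macrophage markers, 9 fell and none rose with SETBP1-D868N, their summed level being 1227 to 1235 CPM with LUC and 856 to 899 CPM with the mutant. With PF-9363, 9 rose and 1 fell, the sum being 1188 to 1331 CPM with DMSO and 3315 to 3964 CPM with the inhibitor. Much of that gain was Mrc1, which went from 231 ± 22.6 to 2080 ± 227 CPM (SD, n = 4 each). The 1 that fell, Ccr2, went from 773 ± 44.7 to 134 ± 12.6 CPM (SD, n = 4 each). For conventional dendritic cells, 8 of 9 tested markers fell with SETBP1-D868N (263 to 284 CPM, then 151 to 166 CPM). With PF-9363, only 5 of the 10 were tested, of which 4 rose and 1 fell (40.7 to 49.2 CPM, then 158 to 199 CPM). Most of that gain was Itgax, which went from 16.0 ± 2.22 to 123 ± 14.4 CPM (SD, n = 4 each). No marker in these lists was at 0 in every library, although Cd209a had at most 3 counts in any library of the second experiment. All 10 neutrophil markers fell with SETBP1-D868N, while 5 rose and 1 fell with PF-9363. The other lists were mixed in the first experiment. Of 10 mast cell and basophil markers, 3 rose and 7 fell with SETBP1-D868N, and 9 rose with PF-9363. Of 10 erythroid and megakaryocyte markers, 4 rose and 3 fell with SETBP1-D868N, and 5 of 6 tested rose with PF-9363. Of 10 stem and progenitor markers, 6 rose and 3 fell with SETBP1-D868N, and 6 of 9 tested rose and 1 fell with PF-9363. The part of these cell types in the IRF changes was not tested.

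The nearest neighbours of each gene in expression were found as the smallest root mean square difference of centred log2 CPM over the 14 libraries among 9582 genes, for the 7 genes called in both experiments. They were Wipf1, Actg1 and Ubap1 for Irf1 (0.054 to 0.057), and Stk38, Iqsec1 and Ptprc for Irf2 (0.048 to 0.052). Irf4 was closest to Plekhm2, Dennd1b and Asap2 (0.070 to 0.077) and Irf5 to Olfm1, Prr13 and Cd52 (0.063 to 0.075). Irf7 was closest to Zswim6, Hrh2 and Plxnc1 (0.11 to 0.12), Irf8 to Laptm5, Ptpn9 and Cmtm6 (0.092 to 0.096), and Irf9 to Trp53inp1, Fam234a and Ntng2 (0.084 to 0.091). The median difference to all candidates lay between 0.448 for Irf2 and 0.623 for Irf7. Between members, Pearson's r over the same 14 centred values was 0.884 to 0.984 for pairs without Irf3 and 0.566 to 0.722 for pairs with it, a description in which all points share libraries and the group differences.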

How the data were processed

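Messenger RNA of 14 libraries was measured in 2 experiments (LUC and SETBP1-D868N, 3 each; DMSO and PF-9363, 4 each), with groups from the sample titles. Per the labels, the authors deposited raw counts by symbol, 1 table of 55367 symbols per experiment; the values are whole numbers. The submitters' processing notes name STAR and DESeq2 and the builds GRCm38 and mm10, without versions or roles. The counting program, annotation and strand handling are not given in the sources used here. No table column was left unmapped (0), and 0 entries lacked a gene name.

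All later steps were run here in R 4.3.3. Each experiment was filtered with filterByExpr of edgeR 4.0.16 (minimum count 10, minimum total 15), scaled by TMM and tested with edgeR's quasi-likelihood test with robust estimation on the group. Adjustment was by Benjamini-Hochberg over all tested genes, with calls under an adjusted p-value of 0.05. The standard error is the absolute log2 fold change over the square root of F. Exon lengths, gene coordinates and overlaps come from GENCODE M21 (GRCm38), matched by symbol (53292 of 55367), and promoters from RefSeq (GRCm38.p6). Ratios used 0.5 CPM added to each value and exact permutation tests over libraries. Limits at 0 use 3 counts per library and cover counting error only. Depth is given with the results; the precision is that of 3 or 4 libraries per group.

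The members and gene lists were chosen with earlier results of these data known. Besides the 8 members, text names per list and comparison the 3 largest absolute log2 fold changes among genes called, with at least 5 CPM in the higher group and no overlap, and a set of genes whatever they showed: Stat2, Spi1, Usp18, Isg15, Tbk1, Sting1, Csf1r, Ly86, Cybb, Prdm1, Klf4 and Irf2bp2. Some genes covered by the rule are not reported here. A value of such a gene in the other comparison is given for comparison, and genes named only as 0 were chosen after their values were seen. So were Ly6c2, Ccr2 and Mgl2, named as genes that fell with PF-9363. Alternatives were RLE size factors, library size alone, 2 other filters, DESeq2 1.42.0, limma-voom (limma 3.58.1), no robust estimation, the replicate number as a block, other pseudocounts, and leaving out each library.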

Additional observations from a re-analysis of the deposited data

Results flagged for a closer look

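Isg15, the ubiquitin-like modifier among the ISGF3 target genes, had 1 library far from the others of its group. With PF-9363 it measured 4.36 CPM in replicate 3, against 7.81, 7.86 and 8.24 CPM in the other libraries, a gap of 0.889 of the group's range by Dixon's ratio. It was the only such library in 80 groups of values examined. Chance alone would flag about 5% of such groups, which is more than the 1 seen.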

How the results depend on the processing

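The 7 lower calls with SETBP1-D868N were made under all 14 alternatives, with 7 called in each, and the largest adjusted p was 0.0191, for Irf9. With PF-9363 all genes but Irf3 were called under all 16 alternatives. The Irf3 call was lost with no filter beyond 1 count in any library (0.20, adjusted p = 0.0666) and without DMSO replicate 4 (0.17), and its estimate was -0.0054 under library size alone; over the single libraries left out it ran from 0.17 to 0.28. Under library size alone the median of all genes moved from -0.038 to -0.27 in the second experiment and the median of the 8 IRF genes from 1.16 to 0.93. Calls then split into 3775 higher and 6653 lower (36.2% higher) instead of 4921 and 5307 (48.1%), and in the first experiment into 4905 and 2997 (62.1%) instead of 3869 and 3579 (51.9%). Sting1 with SETBP1-D868N was 0.040 under library size alone, from -0.0092. The log2 ratio of Irf8 to Irf4 in the first experiment ran from -0.079 to 0.10 over the single libraries left out, being -0.017 without LUC replicate 1 and -0.079 without SETBP1-D868N replicate 1.

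Same-numbered libraries of the 2 groups did not deviate together (correlations from -0.0968 to 0.00753), and 0 libraries in either experiment were closest to their own number. These values showed no pairing but could miss a weak one, and the main test used none. With the replicate number as a block, 7 and 8 IRF genes were called, and 6640 genes in the first experiment instead of 7448 and 10124 in the second instead of 10228. Calls of Oas3 and Irf2bp2 with SETBP1-D868N were lost under the block (adjusted p = 0.117 and 0.0622). The Irf2bp2 call was also lost under library size alone (-0.060, adjusted p = 0.279), limma-voom (adjusted p = 0.0585) and no robust estimation (adjusted p = 0.0570), and the Oas3 call with no filter beyond 1 count in any library (adjusted p = 0.0679). Further, the Irf2bp2 call was lost without any single library apart from LUC replicate 1 in that comparison and without DMSO replicate 4 or PF-9363 replicate 1 in the other. In the second experiment 7 of the 20 ISGF3 target genes did not pass the filter on low counts and were not tested.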

Other observations

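The 10 B cell markers summed to 6.13 to 6.94 CPM with LUC and 6.86 to 7.498 CPM with SETBP1-D868N, and to 12.9 to 16.5 CPM with DMSO and 7.78 to 10.8 CPM with PF-9363. Of 5 tested, 1 rose and 1 fell with SETBP1-D868N, and of 3 tested, 1 rose and 2 fell with PF-9363. Ms4a1, Ebf1 and Blk had 0 counts in all 8 libraries of the second experiment, as had Cd3e, Cd3g, Cd8a and Klrb1c among the T and NK cell markers. The T and NK cell markers summed to 60.2 to 64.2 CPM with LUC and 81.4 to 87.7 CPM with SETBP1-D868N, and to 37.5 to 49.4 CPM with DMSO and 3.58 to 5.16 CPM with PF-9363. Except with PF-9363, most of that sum was Nkg7, a granule gene of cytotoxic lymphocytes, which rose from 58.1 ± 1.98 to 80.2 ± 2.77 CPM (SD, n = 3 each) with SETBP1-D868N and fell from 41.6 ± 5.11 to 1.70 ± 0.433 CPM (SD, n = 4 each) with PF-9363. The 10 markers of plasmacytoid dendritic cells summed to 157 to 163 CPM with LUC and 170 to 179 CPM with SETBP1-D868N, and to 134 to 142 CPM with DMSO and 151 to 165 CPM with PF-9363. These sums hide opposite changes. Of 9 tested, 4 rose and 2 fell with SETBP1-D868N. Of 6 tested with PF-9363, 4 rose and 1 fell, Tcf4, from 24.8 ± 1.57 to 5.82 ± 1.05 CPM (SD, n = 4 each).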
